A study of Mus musculus with 4 samples.

Results

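The epidermal differentiation complex is a cluster of genes on mouse chromosome 3 that encode the proteins of the cornified envelope, the hardened shell of dead surface cells in skin and other stratified epithelia. It was taken here as the 1.9 Mb from 91.7 to 93.6 Mb on chromosome 3 of the mm9 build, and every peak with its midpoint in that stretch was counted as a member. There were 139 members: 12 of the 4130 p63 peaks and 127 of the 183757 H3K27ac peaks in the study. The peaks came from primary epithelial progenitor cells of the salivary gland of p63 wild-type adult mice aged 12 weeks. One chromatin immunoprecipitation (ChIP-seq) library was made with the p63 antibody 4A4 and another with an antibody to H3K27ac. Each was called against its own input, which gave 4 libraries in groups of 1 and 2 peak lists. The library titles differ in prefix, PSECS for p63 and pSG for H3K27ac. Whether the same cell preparation gave both was not established here. How many animals gave cells is not stated in the labels, read depth is unknown, and the cell type could not be checked against marker genes because the lists hold positions only. All values below are therefore descriptions of these libraries, with no test between conditions, and intervals cover counting error only.

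Genes of the complex act late in the life of a keratinocyte. Loricrin (Lor), involucrin (Ivl), the small proline-rich proteins (Sprr) and the late cornified envelope proteins (Lce) are cross-linked into the envelope, while filaggrin (Flg) and its fused S100 relatives bind keratin filaments or the envelope. S100a10, a partner of annexin A2, and S100a11 are members of the S100 family made in many tissues. The transcription factor p63 maintains the basal cells from which stratified epithelia renew, and H3K27ac is an acetylation of histone H3 found at active promoters and enhancers.

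In the RefSeq table of the GRCm38.p6 build, the order along the chromosome from Lor to S100a10 held 53 protein-coding genes: Lor first, then 14 Sprr genes, Ivl, 21 Lce genes, 7 fused S100 genes, and S100a11 and S100a10 last, with 7 others in between. The peaks are on another build, so only this order was used and no gene was assigned to a peak. Start-site sequences were given for 49 of the 53 genes. The 100 bases before the start are printed as examples for 1 gene of each main family. S100a11 alone stands for the far end, because S100a10 had no start-site sequence. Capitals mark TATAAA, the core of the TATA box, or AATAAA, which differs from it at the opening letter. In S100a11, which has neither, capitals mark each CG. The other printed genes all have a marked word, starting from 27 (Lor) to 53 (Flg) bases before the start. In the complex as a whole, read on both strands, 32 of 50 starts (64%) held either word, against 11.5% of the starts of all other genes. The 50 starts include 20 of Lce and 14 of Sprr genes, which are families of related genes, so they are not independent cases. Both words were set after the lists were seen, so this share is a description and no test of enrichment.
Lor: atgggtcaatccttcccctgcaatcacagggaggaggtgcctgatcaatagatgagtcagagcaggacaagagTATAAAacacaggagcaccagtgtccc
Sprr1a: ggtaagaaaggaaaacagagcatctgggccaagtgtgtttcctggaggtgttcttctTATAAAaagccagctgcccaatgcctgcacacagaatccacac
Ivl: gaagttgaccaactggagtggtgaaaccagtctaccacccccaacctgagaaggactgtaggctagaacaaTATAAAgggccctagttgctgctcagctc
Lce1b: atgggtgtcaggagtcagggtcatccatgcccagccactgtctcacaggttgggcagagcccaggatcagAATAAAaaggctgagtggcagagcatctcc
Flg: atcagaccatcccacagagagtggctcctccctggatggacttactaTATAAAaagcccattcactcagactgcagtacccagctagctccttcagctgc
S100a11: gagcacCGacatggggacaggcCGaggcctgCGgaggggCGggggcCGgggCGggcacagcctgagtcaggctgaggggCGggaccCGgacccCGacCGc

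In these 100 bases, read on both strands, TATAAA was present at 20 of the 50 starts of the complex (40%), against 5.51% of the 32801 starts of all other genes. It was found at 10 of 14 Sprr starts and 4 of 7 starts of the fused S100 genes, but at 2 of 20 Lce starts. AATAAA was present at 10 of the 20 Lce starts and 0 of 14 Sprr starts, against 6.73% of the starts of other genes. Both words together were found at 0 of the 50 starts of the complex. The share was 0.713% for the starts of other genes, so this 0 does not set the complex apart. CG, the site of DNA methylation, is frequent at the starts of genes used in many tissues. The full 300 bases around the start held from 0 to 5 CGs in the envelope genes and their neighbours and 15 in S100a11. The median was 1 over the starts of the complex (quartiles 1 and 2) and 7 over those of all other genes (quartiles 3 and 20). The 15 CGs of S100a11 thus lay between the quartiles of other genes. These matches describe letters in the reference genome and are no measurement of binding.

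H3K27ac peaks of the complex were gathered in a dense block near its right end, the end at which S100a11 and S100a10 lie, and the typical step held as many peaks as a typical step of the chromosome. Among 19 steps of 100 kb, the step at chromosome 3:93300001-93400000 held 44 of the 127 H3K27ac peaks (34.6%) and 51.5% of the bases they covered. H3K27ac peaks covered 17.96% of that step and 0.941% of the other 1.8 Mb. The next fullest steps held 12 peaks (chromosome 3:92200001-92300000) and 10 peaks (chromosome 3:91800001-91900000). The median step held 4 peaks, the same as the median of 4 over the 1545 steps of chromosome 3 outside the region, of which 5 held 44 or more. Of the 19 steps, 3 (15.8%) had no H3K27ac peak, against 8.16% of steps elsewhere on the chromosome.

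**Figure D1:**
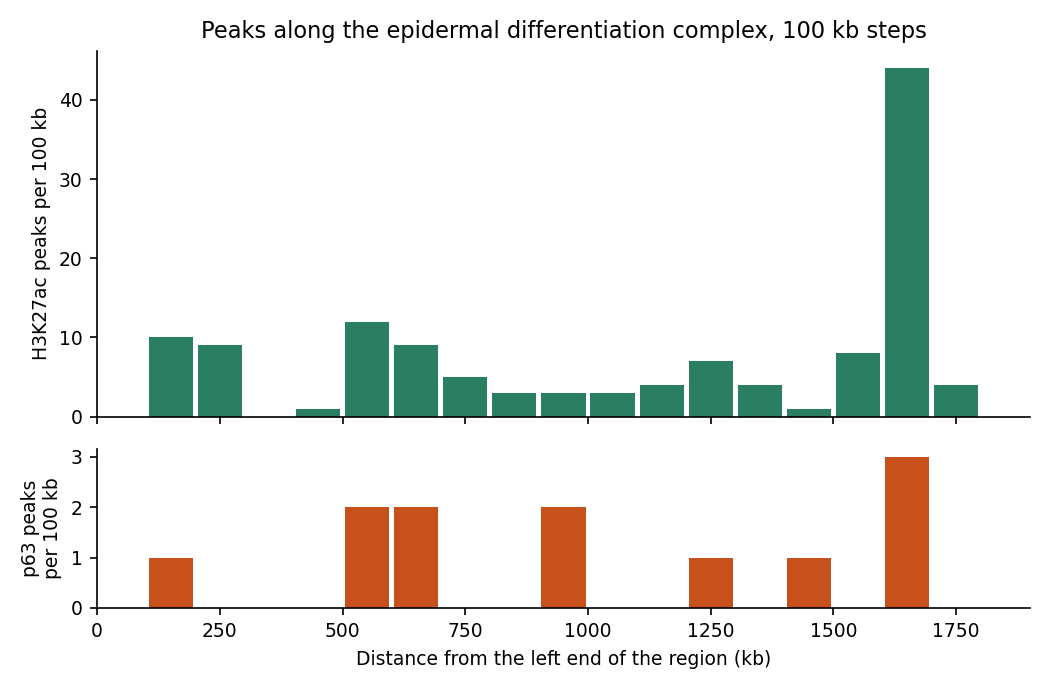
Number of H3K27ac peaks (top) and p63 peaks (bottom) in each 100 kb step, by distance from the left end of the region in kb; each bar is 1 step of 1 peak list. One step holds 44 H3K27ac peaks and 3 p63 peaks, and no other step holds more than 12 H3K27ac peaks or 2 p63 peaks.

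The peaks in the dense step were also wider. Their median width was 245.5 bases (quartiles 175 and 452), and the 83 peaks in the rest of the complex had a median of 184 (quartiles 154.5 and 232). All 9 peaks of 500 bases or more lay in the dense step, while the widest peak elsewhere in the complex had 443 bases. Of those 83 peaks, 18 (21.7%) had the minimum of 150 bases found in the whole list, close to the 22.2% on the rest of chromosome 3. Over the whole complex, 7.09% of peaks reached 500 bases, against 6.76% on the rest of the chromosome, and the median width was 191 against 189 bases. The complex thus resembled its chromosome in the summary of widths, with its wide peaks gathered in 1 of 19 steps. Whether wide peaks also gather in the densest steps elsewhere on the chromosome was not measured.

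**Figure D2:**
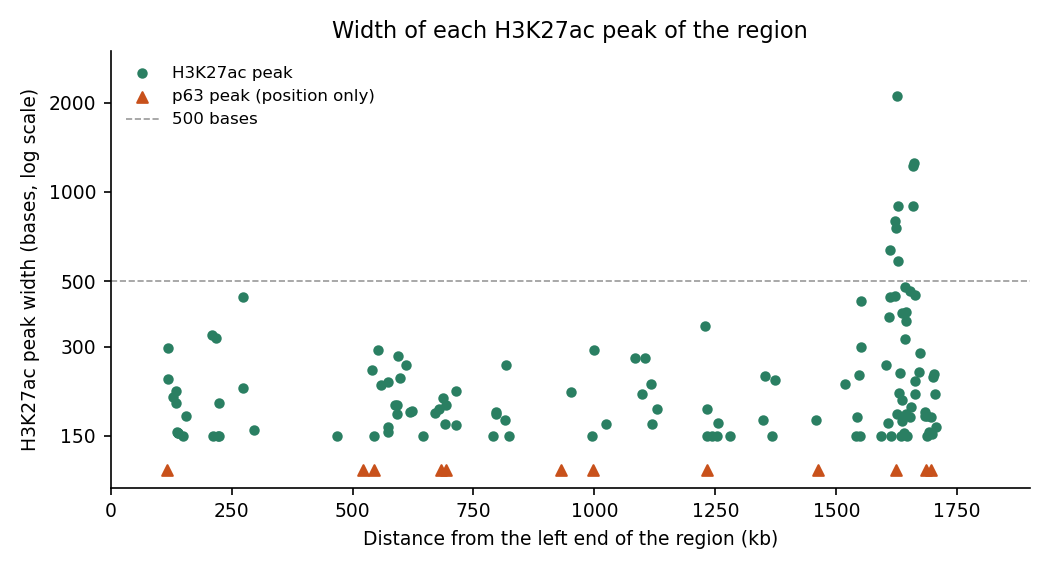
Width in bases (log scale) of each of the 127 H3K27ac peaks against distance from the left end of the region in kb, with p63 peaks as triangles on a line of their own at the bottom. The 9 peaks at or above the dashed line of 500 bases stand together near the right end.

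The widest H3K27ac peak of the complex, chromosome 3:93324235-93326338, had 2104 bases and was number 16 by width on chromosome 3 and number 425 in the whole list. The next were chromosome 3:93360065-93361313 (1249 bases) and its close neighbour chromosome 3:93357662-93358881 (1220 bases). The peaks at chromosome 3:93359041-93359938 (898 bases) and chromosome 3:93326827-93327721 (895 bases) completed the 5 widest. They fell into 2 blocks. When peaks at most 1000 bases apart were joined into domains, the domain at chromosome 3:93323319-93328919 held 6 peaks that covered 4729 of its 5601 bases, and the domain at chromosome 3:93357662-93362952 held 6 peaks that covered 4253 of 5291 bases. By covered bases these were numbers 15 and 23 of the 7676 domains and lone peaks of chromosome 3. Between them lay a looser domain, chromosome 3:93340620-93345439, with 7 peaks and 2034 covered bases. Joined in this way the complex had 87 units, of which 65 (74.7%) were lone peaks, against 83.2% on the rest of the chromosome.

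Long stretches of the complex had no H3K27ac peak. To the right of the dense step acetylation ended after 4 more peaks, and the longest stretch ran from chromosome 3:93407207 to the region's end (193 kb), which was part of a gap of 687 kb that continued outside the region. The longest stretch with peaks on both sides inside the complex, chromosome 3:91996778-92167159, spanned 170 kb and held no p63 peak. The next, chromosome 3:92524201-92652552 (128 kb), held 1 p63 peak. At the left end, the 118 kb before the first H3K27ac peak were part of a gap of 462 kb that began outside the region. Measured whole, the right gap was number 1 and the left gap number 5 by length among the 9986 gaps between neighbouring H3K27ac peaks on chromosome 3, so the complex is bordered by long stretches without a called peak. The longest gap wholly inside it, of 170 kb, was number 65. Whether reads can be placed along these gaps was not tested.

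The 12 p63 peaks lay in 7 of the 19 steps, at most 3 to a step, with a median spacing of 139 kb. Their widths ran from 128 to 244 bases with a median of 182.5, beside 182 on the rest of chromosome 3. Of the 12, 3 lay in the step with the dense acetylation and 9 in the other 1.8 Mb.

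Of the 12 p63 peaks, 2 (16.7%) shared bases with an H3K27ac peak, against 32.9% on the rest of chromosome 3. The intervals of these shares, given below, overlap. The peak at chromosome 3:93324301-93324451 (151 bases) lay wholly inside the widest H3K27ac peak of the complex, near its left edge. The other, chromosome 3:92933064-92933239 (176 bases), shared 98 bases with an H3K27ac peak of 150 bases. One overlap was thus with a broad acetylated block and the other with an H3K27ac peak of minimal width.

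Another 6 p63 peaks (50%) had H3K27ac within 1 kb without touching it, against 35.9% on the rest of chromosome 3. The closest misses were chromosome 3:93396093-93396288, at 235 bases from an H3K27ac peak of 174 bases, and chromosome 3:92698033-92698201, at 253 bases from one of 292 bases. The widest p63 peak of the complex, chromosome 3:91817098-91817341 (244 bases), lay 360 bases to the left of an H3K27ac peak of 296 bases, at the left margin of the first acetylated group of the region. The peaks at chromosome 3:92244247-92244443, chromosome 3:92392646-92392841 and chromosome 3:93384861-93385049 were 694, 768 and 800 bases from H3K27ac peaks of 150, 190 and 180 bases. None of these 6 H3K27ac neighbours was over 296 bases. Such widths are common, since H3K27ac peaks on the rest of chromosome 3 had a median of 189 bases and an upper quartile of 253.

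The remaining 4 p63 peaks stood farther off. The peak at chromosome 3:92383582-92383723 lay 3.72 kb from H3K27ac and the peak at chromosome 3:93161280-93161439 lay 4.01 kb away. Distances of 1 to 10 kb were thus found for 2 of the 12 (16.7%), against 24.2% on the rest of chromosome 3. The peak at chromosome 3:92221275-92221507, of 233 bases, had no H3K27ac for 18.7 kb on its nearer side, and the peak at chromosome 3:92629958-92630085, of 128 bases, had none for 22.5 kb. The former is 1 of the 2 widest p63 peaks of the complex, so the sites far from acetylation include both a wide and the narrowest call. Neighbouring p63 peaks were 8.92 kb apart at their closest, between the site at chromosome 3:92383582-92383723 and the site to its right, and 11.04 kb apart at the right end.

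**Figure D3:**
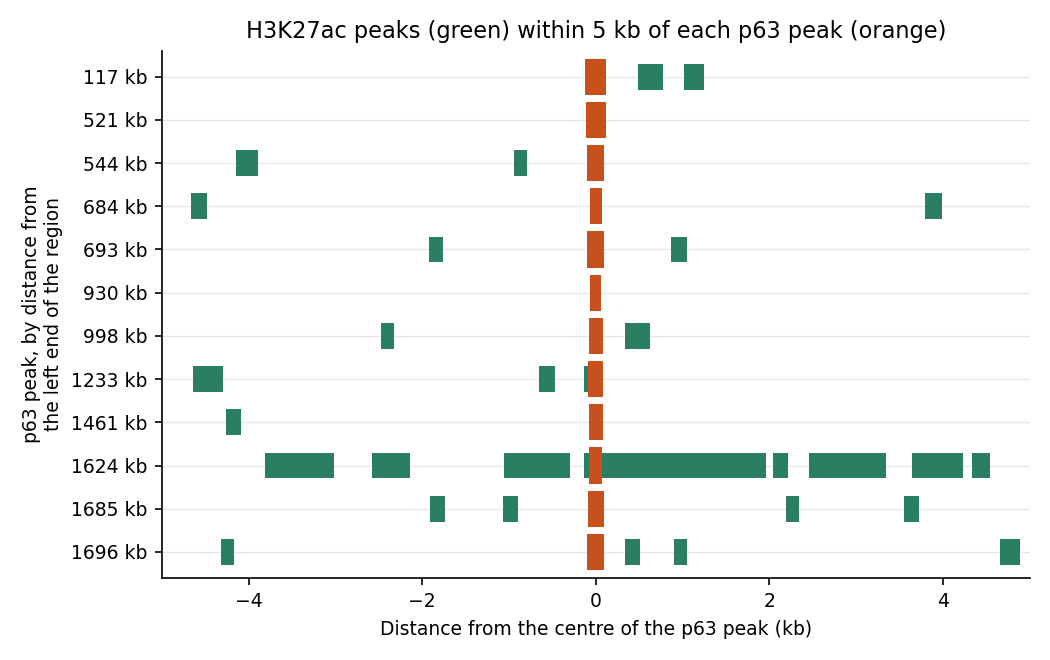
H3K27ac peaks (green) within 5 kb of the centre of each of the 12 p63 peaks (orange), with distance from that centre in kb on the horizontal axis and 1 row per p63 peak, labelled by its distance from the left end of the region. The row at 1624 kb is filled with wide H3K27ac peaks, the other rows hold narrow ones, and the rows at 521 and 930 kb hold none.

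Set beside the 231 p63 peaks on the rest of chromosome 3, the overlap in the complex was lower in value, but it rests on only 12 sites. It was 2 of 12 (16.7%, Wilson 95% interval 4.70 to 44.8%) against 76 of 231 (32.9%, interval 27.2 to 39.2%), and the intervals overlap. Within 1 kb of H3K27ac the shares were 66.7% (8 of 12, interval 39.1 to 86.2%) and 68.8% (159 of 231). More than 10 kb from H3K27ac they were 16.7% (2 of 12) and 6.93% (16 of 231, interval 4.31 to 10.95%). The median distance to H3K27ac was 731 bases in the complex and 128 bases on the rest of the chromosome. No test was made of these differences.

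The number of p63 peaks in the complex was high for its chromosome, while the number of H3K27ac peaks was ordinary. The complex carried 6.32 p63 peaks per Mb (exact Poisson 95% interval 3.26 to 11.03). The 75 windows of 2 Mb that tile chromosome 3 outside it had a median of 1 per Mb (quartiles 0.500 and 2.50), and 1.51 per Mb when all 226 of their p63 peaks were pooled. The value of the complex was exceeded by 2 of the 75 windows, the adjoining chromosome 3:100000001-102000000 with 16 p63 peaks and chromosome 3:102000001-104000000 with 14. H3K27ac stood at 66.8 peaks per Mb (interval 55.7 to 79.5) against a median of 62 (quartiles 36.5 and 86.25), with 31 of 75 windows higher. The interval for H3K27ac counts peaks as independent although many lay in a single step, so it is too narrow. The covered share was 1.84% against a median of 1.43%, with 24 windows higher. Per 100 H3K27ac peaks the complex had 9.45 p63 peaks, the windows had a median of 1.70 and a highest value of 6.76, and the 2 windows richer in p63 had 5.71 and 5.69.

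**Figure D4:**
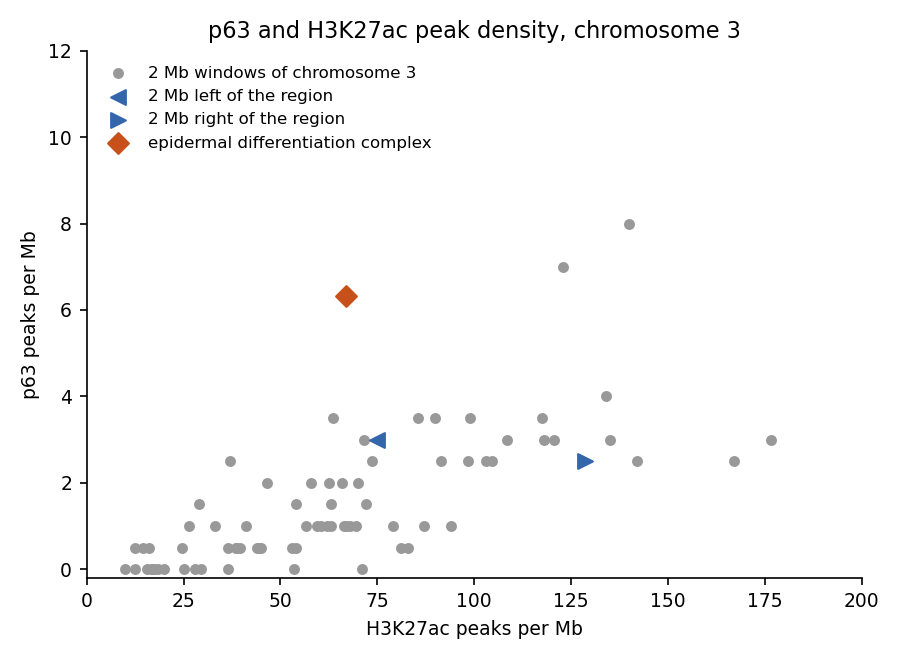
p63 peaks per Mb against H3K27ac peaks per Mb for 75 windows of 2 Mb on chromosome 3 (grey), the 2 Mb on either side of the complex (blue triangles) and the complex itself (orange diamond). The complex, at 66.8 H3K27ac and 6.32 p63 peaks per Mb, lies above all grey points of like H3K27ac density, and the 2 grey points above it lie at 123 and 140 H3K27ac peaks per Mb.

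Across those 75 windows the densities of p63 and H3K27ac rose together (Spearman rho = 0.79, Pearson r = 0.74, a description over windows of the same 2 libraries, which also share the gene content of each window). Windows of like acetylation are therefore the closer comparison. In the 23 windows whose H3K27ac density was within 20% of that of the complex, p63 peaks numbered from 0 to 7 per window, with a median of 1 per Mb and a highest value of 3.50 per Mb. The 2 Mb to the left of the complex had 3 p63 and 75 H3K27ac peaks per Mb, and the 2 Mb to the right 2.50 and 128.5. Both neighbours thus held fewer p63 peaks and more H3K27ac peaks per Mb than the complex between them. They also held more H3K27ac peaks of 500 bases or more, 12.5 and 23 per Mb, against 4.74 per Mb in the complex.

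The share of H3K27ac peaks gathered in a single step was also high for the chromosome, but its size depended on where the steps began. The fullest step of the complex held 34.6% of its H3K27ac peaks, the median over windows was 15.6% (highest 38.8%), and 1 of 75 windows was higher. Among the 23 windows of like H3K27ac density the share ran from 9.52 to 25%. With all steps offset by 50 kb, the dense block was split, the fullest step held 29 peaks (22.8%), 7 of 75 windows were higher, and the value lay inside the 8.62 to 27.9% of the windows of like density. With the fullest 100 kb taken wherever it fell, the complex had 46 peaks there (36.2%), 1 window was higher, and the windows of like density ran from 12.1 to 29.4%. When the fullest step was left out of the complex and of each window alike, the complex had 46.1 H3K27ac peaks per Mb beside a median of 53.7 (46 of 75 windows higher), and 5 p63 peaks per Mb beside a median of 1.05 (2 of 75 higher). These ranks were read from the same windows after the region had been chosen, and are no test of whether another stretch of the genome would give the same.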

How the data were processed

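ChIP-seq peak lists of p63 and H3K27ac in salivary gland epithelial progenitor cells were used as deposited. Per the submitters' processing notes, Bowtie 1.1.1, MACS2 2.1.0 and the mm9 build were used; for settings and thresholds, nothing is given in the sources used here. The lists the authors deposited have 3 columns (chromosome, start, end), so no score or read depth was available. Starts are printed counted from 1.

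Peaks were assigned by midpoint, overlap needed 1 shared base, and distances run between peak edges. Windows of 2 Mb were tiled from position 0, and those touching the region or reaching past the outermost peaks were left out. Sites were named by rule: all p63 peaks, the 5 widest H3K27ac peaks, the fullest steps, the longest empty stretches and the 3 domains with most covered bases; other named windows were picked after their values were seen. The members, lists and comparisons were chosen with earlier results of these data known. The 20% band, the motif words and the printed genes were set after the lists were seen. With 1 library per mark, no test between groups was possible. Counting, overlap and gap functions were tested on simulated data. Promoter sequences and gene order are from RefSeq (GRCm38.p6), matched by gene ID. Peak sequences were not used, for want of an mm9 genome. The software was matplotlib 3.10.9, scipy 1.17.1, pandas 2.3.3 and numpy 2.4.6 under Python 3.11.15.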

Additional observations from a re-analysis of the deposited data

How the results depend on the processing

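Of 40 alternatives, 27 stayed within their limit: 1.5 times for counts, the Poisson interval for densities and their ratios, the binomial interval for the covered share and equality for the longest stretch. The binomial interval counts every base as independent although bases come in peaks. It is therefore too narrow, and a covered share outside it may differ little. The Poisson intervals likewise count peaks as independent. Because H3K27ac peaks gathered in a single step, the intervals for H3K27ac are too narrow as well. The number of p63 peaks, their density and their number per 100 H3K27ac peaks stayed within their limits in all 13 alternatives. The density was 4.75 to 6.32 times the median window, and the number per 100 H3K27ac peaks ran from 9.45 to 13.8. These limits were wide, at 3.26 to 11.03 times the median window for the density. Leaving out the last step could not change the p63 number, because that step held no p63 peak. Joining H3K27ac peaks or dropping the narrowest lowered their number while all 12 p63 peaks remained, so the number per 100 could only rise. The number per 100 was not recomputed for the windows under any alternative, so its range is not comparable with their median. With H3K27ac peaks of 500 bases or more only, the complex held 9 peaks, 1.89 times the median window. The Poisson interval of that ratio was 0.866 to 3.60, and 22 of 74 windows were higher. The complex then had a longest empty stretch of 1611 kb. Without its fullest step it held 83 peaks, 0.744 times the median window (0.859 times with the windows' own fullest steps left out too), a covered share of 0.941% and 1 overlapping p63 peak. Without the narrowest peaks the covered share was 1.66% and the longest stretch 243 kb; without the last step the covered share was 1.94%. Counting H3K27ac within 1000 bases, 8 p63 peaks had it. Steps offset by 50 kb split the dense block, and the fullest then held 29 peaks. The 16 alternatives that leave out the fullest step, place it freely, or concern p63 density or p63 peaks per 100 H3K27ac peaks were chosen after seeing the data. No paired analysis was possible because there is a single library per group. With read depth not known, a stretch without a called peak is not shown to lack acetylation or p63.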
